A study of Homo sapiens with 62 samples.

Results

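The transcripts described here are 10 genes that ERK signalling switches on and whose products mostly act back on the same pathway: the phosphatases DUSP4, DUSP5 and DUSP6, the inhibitors SPRY2, SPRY4, SPRED1 and SPRED2, the ETS transcription factors ETV4 and ETV5, and PHLDA1. They were chosen by gene name, and all 10 had a row among the 29794 genes of the tables. They were followed by SLAM-seq, in which RNA that takes up 4-thiouridine (4sU), here for 2 h, gives reads with T>C conversions. The 62 libraries came from AsPC-1, a classical line, and T3M-4, a basal-like line, both from human pancreatic ductal adenocarcinoma (PDAC). All 62 came from cells of genotype FKBP12-F36V-FLAG-KLF5_sgEndogenousKLF5, which are selected pools of cells in which a lentiviral, degron-tagged copy of the transcription factor KLF5 stands in for the endogenous gene cut by Cas9. In AsPC-1, 10 libraries were treated for 4 h with dTAG (dTAGv-1, which degrades the tagged protein) and 10 with NEG (its inactive analogue), 5 with CB-6644 (which inhibits the ATPase RUVBL1/2) and 5 with DMSO for 4 h, 4 with CB-6644 and 4 with DMSO for 12 h, and 4 with NVP-2 (a blocker of CDK9, the kinase that releases paused RNA polymerase II) for 4 h. Each of the same 5 agents was given to T3M-4 for 4 h, with 4 libraries per agent. A library is named below by its experiment and its number within it, so that 2.1 is the first library of experiment 2. Each library also belongs to batch 1 or 2. In AsPC-1 the NVP-2 libraries are numbered 1.1 to 2.2 but belong to batch 2. The other AsPC-1 libraries of experiments 1 and 2 belong to batch 1, so equal numbers may not mean a shared experiment for NVP-2 there. The dTAG and NEG libraries came from 3 experiments in AsPC-1 and 2 in T3M-4. The study's descriptions speak of biological replicates both as the experiments and within them, and the labels do not say whether libraries of 1 experiment were separate cultures. P-values over libraries therefore measure a spread that may in part be technical and may be too small, so values from counts summed per experiment are given beside the T>C calls for dTAG and NVP-2.

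ERK is the last kinase of a cascade in which growth factor receptors switch on RAS, RAS switches on RAF, RAF switches on MEK and MEK switches on ERK. Active ERK raises transcription of a set of short-lived transcripts, many of which encode brakes on the cascade, so their level is commonly read as a measure of recent ERK output. In PDAC the cascade is of particular interest because it is active in most tumours. The 3 phosphatases remove the activating phosphates from ERK and related kinases, DUSP4 and DUSP5 in the nucleus and DUSP6 in the cytoplasm. Sprouty proteins (SPRY2, SPRY4) restrain signalling between receptors and RAF, and SPRED1 and SPRED2 bring the RAS inactivator neurofibromin to the membrane. ETV4 and ETV5 belong to the PEA3 group of ETS factors, which carry the response on to further genes, and PHLDA1 is a pleckstrin homology-like protein induced by ERK.

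SPRY2, SPRY4, PHLDA1 and DUSP6 had the highest labelled share among the 9 members measured in both lines and fell together after NVP-2. DUSP4, with a lower share, fell in both lines as well (log2 fold changes of T>C reads −2.27 and −2.25). The fall is therefore not particular to the 4 genes. The promoters of these 4 are shown for their high share together with that fall. Each run holds 250 bases before and 50 after the start site that RefSeq gives (GRCh38.p14, minus strand, 5′ to 3′), and capitals mark a match, on either strand, of CCNCNCCC (a CACCC box, the kind of site that KLF factors bind) or of CCGGAA (the core of an ETS site).
SPRY2 (chr13:80341077-80341376): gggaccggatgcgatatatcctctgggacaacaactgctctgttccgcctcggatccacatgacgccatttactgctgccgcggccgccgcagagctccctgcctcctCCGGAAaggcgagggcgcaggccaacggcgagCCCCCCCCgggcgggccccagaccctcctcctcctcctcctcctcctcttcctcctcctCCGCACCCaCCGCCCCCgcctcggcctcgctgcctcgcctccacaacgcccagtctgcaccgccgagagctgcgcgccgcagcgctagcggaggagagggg
SPRY4 (chr5:142324198-142324497): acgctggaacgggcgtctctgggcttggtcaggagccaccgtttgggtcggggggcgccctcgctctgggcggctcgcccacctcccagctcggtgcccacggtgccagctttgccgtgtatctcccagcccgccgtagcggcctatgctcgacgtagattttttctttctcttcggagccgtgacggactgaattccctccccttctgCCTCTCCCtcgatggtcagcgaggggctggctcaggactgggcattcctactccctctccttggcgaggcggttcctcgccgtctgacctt
PHLDA1 (chr12:76031727-76032026): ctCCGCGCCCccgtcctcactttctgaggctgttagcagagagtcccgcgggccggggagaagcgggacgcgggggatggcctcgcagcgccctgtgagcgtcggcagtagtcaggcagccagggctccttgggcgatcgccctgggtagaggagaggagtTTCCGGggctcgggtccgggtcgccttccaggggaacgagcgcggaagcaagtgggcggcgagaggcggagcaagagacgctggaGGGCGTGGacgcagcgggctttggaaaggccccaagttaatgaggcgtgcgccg
DUSP6 (chr12:89352452-89352751): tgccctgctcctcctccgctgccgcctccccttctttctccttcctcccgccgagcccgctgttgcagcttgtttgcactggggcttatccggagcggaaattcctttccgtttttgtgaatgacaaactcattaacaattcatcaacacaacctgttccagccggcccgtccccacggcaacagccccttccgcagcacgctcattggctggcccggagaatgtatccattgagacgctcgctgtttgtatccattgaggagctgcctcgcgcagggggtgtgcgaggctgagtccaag
The SPRY2 window held 3 CACCC matches and 1 ETS match, that of PHLDA1 held 2 and 1, that of SPRY4 held 1 CACCC match, and that of DUSP6 held neither. RefSeq windows were also found for SPRED2, with 4 CACCC matches, and SPRED1, with 0. CCNCNCCC was found in 55.1% and CCGGAA in 17.6% of 27305 RefSeq promoter windows of this length. TGACGTCA (a cyclic AMP response element, in 1.98% of windows) and TGANTCA (an AP-1 site, in 7.76%) were in none of the 6 windows, which says only that these letters were absent from them. Windows of DUSP4, DUSP5, ETV4 and ETV5 were not used here.

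An AsPC-1 library held between 82676553 and 200298262 reads, a T3M-4 library between 111132257 and 244524608. Outside NVP-2, between 8296433 and 18311982 of these carried T>C in AsPC-1 and between 13562612 and 27982537 in T3M-4. With NVP-2 the T>C reads were 2240998 to 3517345 and 3714015 to 4982006, and the share of all reads with T>C was 1.57% ± 0.239 (SD, n = 4) and 2.24% ± 0.417 (n = 4) there, against 10.1% ± 0.624 (n = 5) and 12.4% ± 1.56 (n = 4) in DMSO at 4 h. Every value below comes from whole-read counts over annotated 3′UTRs, as CPM for a level (the T>C count of a gene scaled to a common total of T>C reads, unless all reads are named) and as the percentage of a gene's own reads that carry T>C (labelled share). The lines were checked against markers in the control libraries. Of the classical markers, HNF4A had 10.2 to 34.2 CPM of all reads in AsPC-1 and 0.117 to 0.603 in T3M-4, GATA6 3.13 to 7.25 and 1.41 to 2.45, and MUC13 2.99 to 44.7 and 0.510 to 2.66, while TFF1 overlapped between the lines (0.250 to 4.10 and 0.328 to 1.41). The summed basal-like markers TP63, KRT5, KRT6A, KRT17 and S100A2 had 13.1 to 57.1 and 2610 to 4551. Fibroblast and leukocyte lists summed to at most 17.97 and 15.1 CPM. Their highest genes by mean were LUM (8.7 CPM) and CD68 (7.8) in AsPC-1 and COL1A1 (7.4) and CD68 (1.7) in T3M-4. The lowest was CD3E, at 0.00505 CPM in AsPC-1 and 0.00589 in T3M-4. KLF5 is degraded as a protein, so its own RNA does not check the labels. A fit across all genes called a gene at a Benjamini-Hochberg adjusted p under 0.05 (edgeR's quasi-likelihood test for reads, limma for the labelled share), and log2 fold changes are given ± SE.

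**Figure D1:**
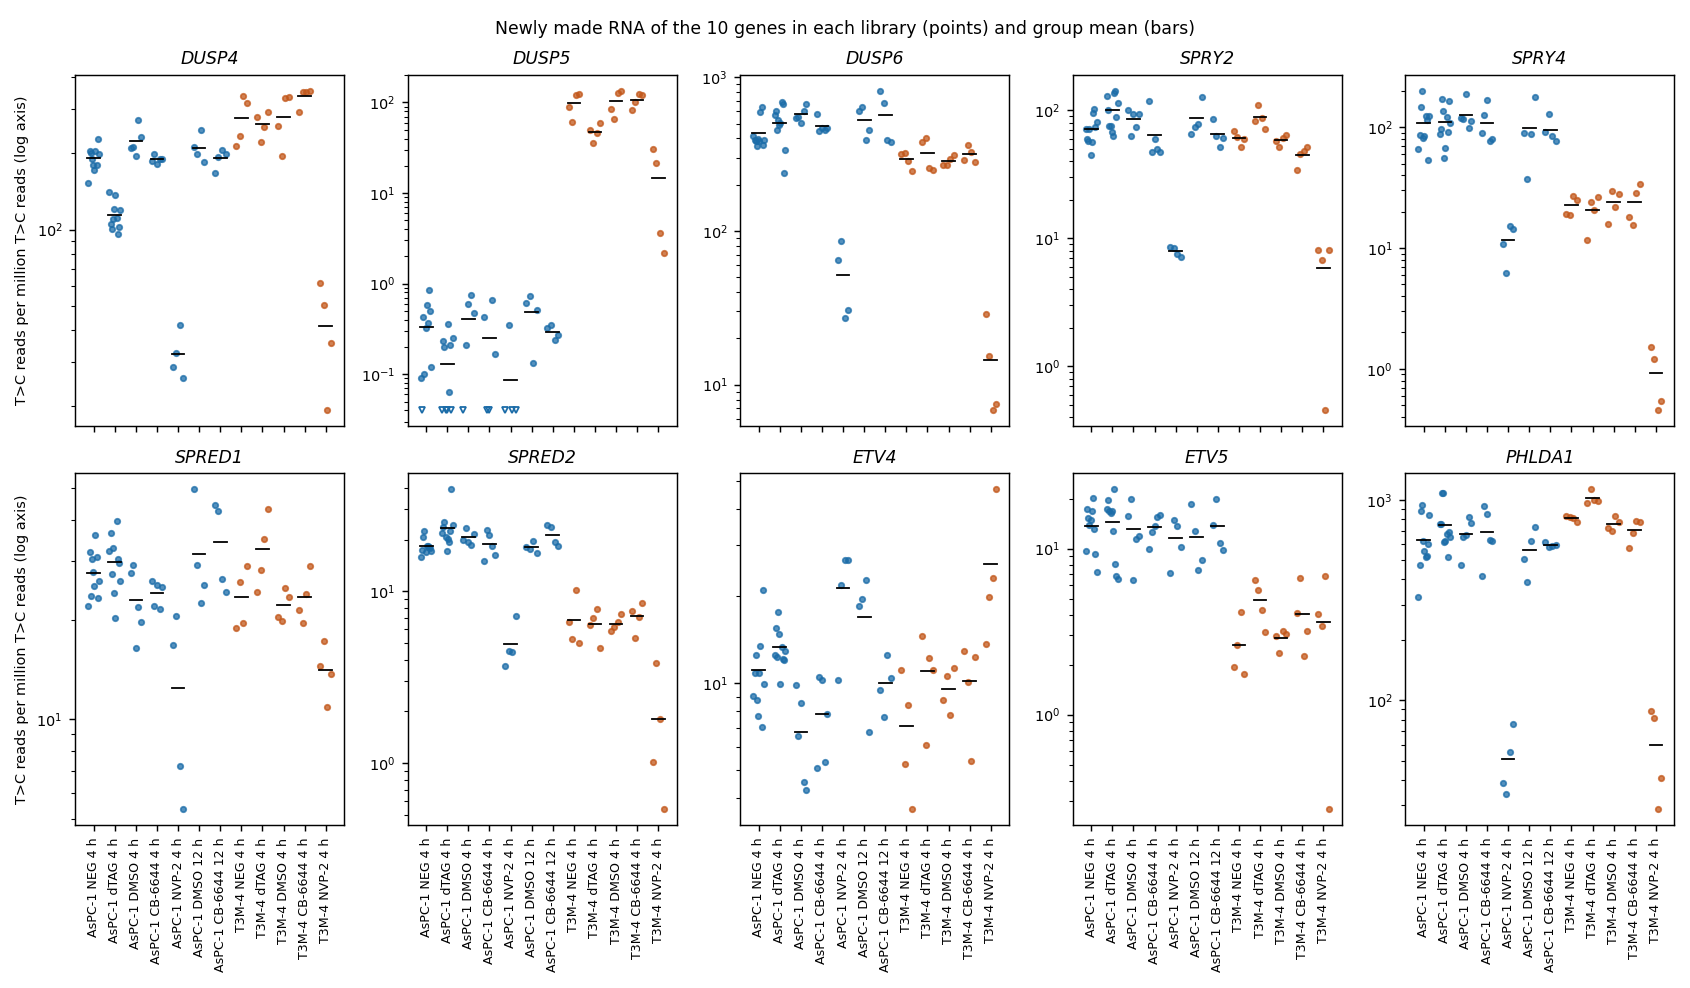
T>C CPM of the 10 genes (log scale, panels by gene) in each library, by line and treatment, where a point is 1 library. DUSP4, DUSP6, SPRY2, SPRY4 and PHLDA1 lie lowest in the NVP-2 libraries of both lines, and DUSP5 lies between 36.1 and 135 CPM in the T3M-4 libraries outside NVP-2 and under 1 CPM in AsPC-1.

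Of the 3 phosphatases, DUSP5 was higher and DUSP6 lower in T3M-4 than in AsPC-1. DUSP5 (ENSG00000138166.6, chromosome 10, 110497907 to 110511533, plus strand, 3′UTR 110510424 to 110511533) was almost silent in AsPC-1, where all 42 libraries together held 145 T>C reads, from 0 to 13 per library. No DUSP5 read with T>C was counted in 11 of these libraries, and a count of 0 allows up to 3 reads. The AsPC-1 DMSO libraries at 4 h held 23 such reads in all and 0.407 ± 0.302 CPM (n = 5). The T3M-4 DMSO libraries had 84.8, 65.5, 128 and 135 CPM, with both libraries of experiment 2 above both of experiment 1. The fit of T3M-4 against AsPC-1 in DMSO at 4 h gave 7.98 ± 0.50 for DUSP5 (adjusted p 6.9e-07), a size that rests on those few AsPC-1 reads. DUSP6 (ENSG00000139318.8, chromosome 12, 89347235 to 89352501, minus strand, 3′UTR 89347235 to 89349256) had 547, 553, 501, 605 and 671 CPM in AsPC-1 and 270, 270, 293 and 314 in T3M-4, without overlap (−0.96 ± 0.15, adjusted p 0.000377). DUSP4 (ENSG00000120875.9, chromosome 8, 29333064 to 29350684, minus strand, 3′UTR 29333064 to 29337028) had 210, 211, 195, 272 and 233 CPM in AsPC-1 and 257, 195, 332 and 335 in T3M-4, and the groups overlapped (0.36 ± 0.20, adjusted p 0.159). In the NEG libraries DUSP4 overlapped as well, with 153 to 229 CPM in AsPC-1 and 214 to 336 in T3M-4. There its all reads (38.0 to 54.7 and 59.9 to 78.4 CPM) and its percentage of reads with T>C (33.5% to 43.0% and 46.4% to 52.3%) were apart, higher in T3M-4.

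Among the inhibitors and transcription factors, 3 genes were lower in T3M-4. SPRY4 (ENSG00000187678.10, chromosome 5, 142310427 to 142326455, minus strand) had 119, 118, 188, 97.7 and 113 CPM in AsPC-1 and 15.9, 29.5, 22.0 and 28.1 in T3M-4 (−2.37 ± 0.27, adjusted p 3.27e-05). SPRED2 (ENSG00000198369.10, chromosome 2, 65310851 to 65432637, minus strand) had 18.7 to 23.5 CPM and 5.87 to 7.35 (−1.62 ± 0.19, adjusted p 5.04e-05). ETV5 (ENSG00000244405.8, chromosome 3, 186046314 to 186110318, minus strand) had 6.49 to 20.0 CPM and 2.35 to 3.19 (−2.12 ± 0.32, adjusted p 0.000289). All 3 ranges were apart. SPRY2 (ENSG00000136158.12, chromosome 13, 80335976 to 80341126, minus strand) had 62.6 to 101 CPM in AsPC-1 and 51.4 to 64.4 in T3M-4, and was called lower in all reads (−0.82 ± 0.20, adjusted p 0.00466) but not in T>C reads (−0.50 ± 0.19, adjusted p 0.0519). With NEG in place of DMSO the all-read difference of SPRY2 was −0.40 (adjusted p 0.178). SPRED1 (ENSG00000166068.13, chromosome 15, 38252836 to 38357249, plus strand), ETV4 (ENSG00000175832.13, chromosome 17, 43527844 to 43579620, minus strand) and PHLDA1 (ENSG00000139289.15, chromosome 12, 76025447 to 76031776, minus strand) were not called in either measure, with T>C differences of −0.00 ± 0.20, 0.55 ± 0.30 and 0.20 ± 0.18. In all, 5 of 10 members were called in T>C reads and 6 of 10 in all reads, where 48.4% and 55.7% of all genes tested were called.

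The labelled share, which is high for a transcript whose pool is renewed within the labelling time, put SPRY4, SPRY2, DUSP6 and PHLDA1 near the top of all genes in both lines. In AsPC-1 DMSO libraries the mean share was 61.4% ± 3.11 (n = 5) for SPRY4, 55.0% ± 1.38 for SPRY2, 55.0% ± 2.71 for PHLDA1 and 53.6% ± 2.67 for DUSP6. These lay above 99.7%, 99.1%, 99.1% and 98.8% of 11934 genes, whose median was 15.4%. DUSP4 followed with 42.5% ± 3.03, then SPRED2 with 36.1% ± 3.55, SPRED1 with 28.2% ± 5.97 and ETV5 with 20.2% ± 4.04. ETV4 had 4.55% ± 1.36, above only 8.26% of genes. The ranges of SPRY4 and SPRY2 did not overlap, those of SPRY2, PHLDA1 and DUSP6 did, that of DUSP4 (38.8% to 46.2%) lay below all 4, and that of SPRED2 (30.6% to 40%) overlapped both DUSP4 and SPRED1. In T3M-4 SPRY4 had 77.5% ± 3.83 (n = 4), SPRY2 76.6% ± 4.26, DUSP5 76.6% ± 2.04, DUSP6 74.1% ± 2.60 and PHLDA1 68.0% ± 1.96, with all but PHLDA1 overlapping, against a median of 17.6% over 13455 genes. DUSP4 had 47.7% ± 1.56 there, SPRED1 36.0% ± 9.96, SPRED2 33.8% ± 4.93, ETV5 20.6% ± 5.76 and ETV4 7.17% ± 3.79. The share was higher in T3M-4 than in AsPC-1 for SPRY2 (1.44 ± 0.19 on the log2 odds scale, adjusted p 0.00196), DUSP6 (1.31 ± 0.16, 0.00156), SPRY4 (1.12 ± 0.19, 0.00553) and PHLDA1 (0.80 ± 0.15, 0.00822), so 4 of 9 members were called where 14.2% of genes were. The median difference was 0.55 over the 9 members and 0.31 over all genes.

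The counting of 4 members bears on these values. Every count of SPRY2, SPRY4 and PHLDA1 was even in every library and both tables, as counts in which each read enters more than once would be, so the number of independent reads may be smaller than the count. ETV4 had T>C counts that were multiples of 3 in 40 of 42 AsPC-1 and 20 of 20 T3M-4 libraries, but all-read counts that were multiples of 3 in only 16 of 41 and 11 of 20. Its labelled share therefore sets reads counted in different ways against each other, and its low value is a value of these tables. The 3′UTR of ETV4 also overlaps the DHX8 gene on the other strand, and the 3′UTR of PHLDA1 overlaps the antisense gene PHLDA1-AS1. With the T>C counts of each gene divided by their common divisor, as many members were called in T>C reads in every treatment comparison as before. That check left all-read counts as they were, so it does not bear on the labelled share of ETV4. It also leaves ETV4 unchanged wherever a library in the comparison breaks the multiple of 3.

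After KLF5 degradation by dTAG, newly made DUSP4 RNA fell in AsPC-1, and no other member was called in the fit without a block. DUSP4 had 140, 105, 100, 110, 121, 137, 111, 95.8, 102 and 119 CPM in the 10 dTAG libraries and 153, 205, 201, 190, 181, 172, 205, 180, 229 and 200 in the 10 NEG libraries. The highest dTAG library lay below the lowest NEG library, in a comparison where 0.451% of 11755 genes separated downwards in this way. Means were 114 ± 15.2 and 192 ± 21.1 CPM, a log2 fold change of −0.73 ± 0.09 (adjusted p 6.65e-05). This was 1 of 9 members tested, where 2.4% of all genes were called. DUSP5 had too few reads in AsPC-1 to be tested. Within batch 1 (experiments 1 and 2) the change was −0.62 (adjusted p 0.0219) and within batch 2 (experiment 3) −0.93 (adjusted p 0.08). With counts summed per experiment DUSP4 was not called, at −0.68 over 3 sums a group (adjusted p 0.167), a fit that called 0 genes. The fit over libraries called 281 genes, and had 1413 at an unadjusted p under 0.05. In these bulk libraries less RNA per cell and fewer cells of a kind cannot be told apart.

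The AsPC-1 libraries also fell into 3 sets that cross treatments, found by clustering 500 genes that vary among controls and include 0 members. The first and second sets cross experiments as well. The third holds only batch 1 libraries of experiment 2, so set and experiment cannot be told apart there. DUSP4 had means of 113 CPM in dTAG and 186 in NEG in the first set (n = 4 each), 108 and 205 in the second (n = 4 each) and 129 and 176 in the third (n = 2 each). With set and experiment as a block its change stayed at −0.73 (adjusted p 1.51e-05). Its all reads fell too, from 47.2 ± 4.96 CPM (n = 10) to 31.3 ± 4.63 (n = 9, since the all-read column of dTAG 3.1 could not be used), with every dTAG library below every NEG library (−0.62 ± 0.09, adjusted p 0.00105). That was the only 1 of 9 members called in all reads, where 0.797% of genes were called.

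**Figure D2:**
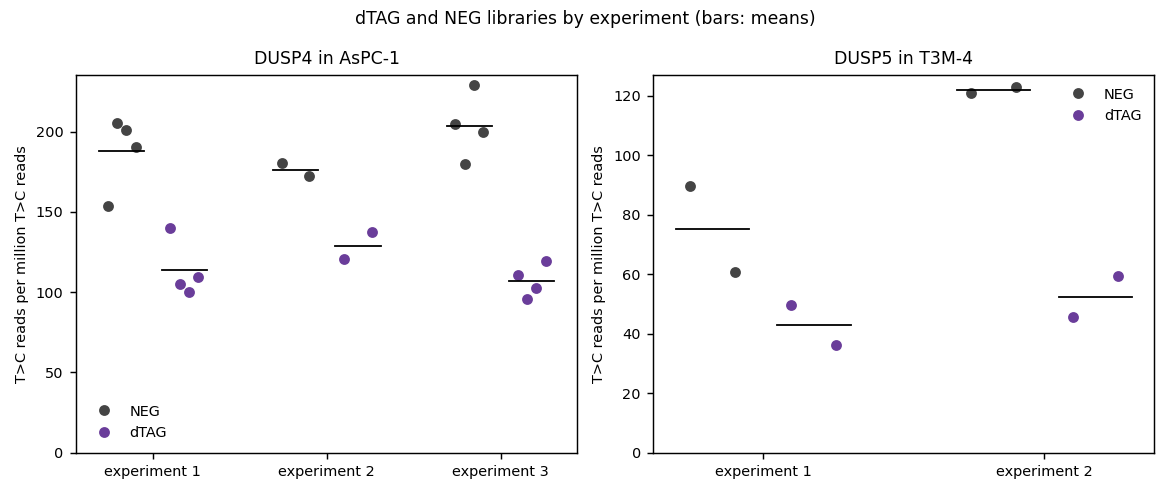
T>C CPM of DUSP4 in AsPC-1 and of DUSP5 in T3M-4 by experiment, where a point is 1 library and a bar the mean of an experiment. Every dTAG library lies below every NEG library in both panels, from 95.8 to 140 against 153 to 229 CPM for DUSP4 and from 36.1 to 59.4 against 60.9 to 123 CPM for DUSP5.

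SPRY2 moved the other way in AsPC-1. It had 63.2 (lowest), 94.5 (median) and 142 (highest) CPM in dTAG and 44.4, 71.1 and 102 in NEG, with 4 dTAG libraries above all NEG libraries, and a change of 0.50 ± 0.17 (adjusted p 0.172). With the replicate number as a block SPRY2 was called (0.48, adjusted p 0.00242, and 0.45 with adjusted p 0.00402 in all reads), as it was with the experiment as a block (0.50, adjusted p 0.0126). With counts summed per experiment SPRY2 was not called (0.49, adjusted p 0.999). Scaled by all reads it was 0.19 (adjusted p 0.539). Its means in dTAG and NEG were 127 and 82.4 CPM in the first set, 88.2 and 70.7 in the second and 65.6 and 50.6 in the third. SPRED2 had a change of 0.38 ± 0.13 (adjusted p 0.167, and 0.095 with the replicate block), and its highest dTAG library, 3.3, had 39.2 CPM where the next had 25.4. DUSP6 had 237, 515 and 692 CPM in dTAG and 357, 390 and 643 in NEG (lowest, median, highest), a change of 0.25 ± 0.16 (adjusted p 0.61). In batch 1 alone DUSP6 was called (0.44, adjusted p 0.0363), and in batch 2 alone it was −0.05, where libraries 3.3 and 3.4 had 237 and 336 CPM and 3.1 and 3.2 had 692 and 666. The remaining changes were 0.28 ± 0.17 for ETV4, 0.27 ± 0.17 for PHLDA1, 0.13 ± 0.12 for SPRED1, 0.09 ± 0.22 for ETV5 and 0.05 ± 0.23 for SPRY4, with adjusted p from 0.611 to 0.973. Of the 9 members tested 8 lay above 0, with a median of 0.25, where all genes had a median of 0.03 and 44.8% lay below 0. Scaling by all reads shifted the median of all genes to −0.24, and DUSP6, SPRY4, SPRED1 and ETV5 then lay below 0.

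In T3M-4 the same treatment called 0 of 10 members in the fit without a block, where 0.834% of genes were called (957 genes and 2 members at an unadjusted p under 0.05, and 1 member by DESeq2). DUSP5 had the largest change. It had 49.8, 36.1, 45.6 and 59.4 CPM in dTAG and 89.6, 60.9, 121 and 123 in NEG, with every dTAG library below every NEG library and the NEG libraries of experiment 2 above those of experiment 1. Means were 47.7 ± 9.64 and 98.6 ± 29.3 CPM, a change of −1.12 ± 0.27 (adjusted p 0.112). With the replicate number as a block DUSP5 was called (−1.09, adjusted p 0.0109), and in all reads it was −0.99 (adjusted p 0.423), or −0.97 with the block (adjusted p 0.0427). Within batches it was −0.87 (adjusted p 0.374) and −1.27 (adjusted p 0.0507), and with counts summed per experiment, a fit that called 0 genes, −1.15 (adjusted p 1.00). SPRY2 (82.2, 110, 87.5 and 71.7 CPM against 68.8, 61.6, 51.5 and 59.4) and PHLDA1 (962, 1126, 995 and 989 against 832, 816, 808 and 776) lay above all NEG libraries. Their changes were 0.46 ± 0.18 (adjusted p 0.564) and 0.26 ± 0.14 (adjusted p 0.86). Groups separated downwards in 3.3% and upwards in 2.77% of 12350 genes in this comparison, so 1 member below and 2 above of 10 are to be read against that. The other 7 members ran from −0.20 ± 0.28 (SPRY4) to 0.83 ± 0.41 (ETV5), with overlapping groups.

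DUSP4, the member called in AsPC-1, had 278, 222, 255 and 293 CPM after dTAG in T3M-4 and 214, 234, 336 and 318 in NEG, which overlap (−0.15 ± 0.21, adjusted p 0.999). The change differed between the lines by 0.60 ± 0.18, at an unadjusted p of 0.00285 and an adjusted p of 0.501, so a difference between lines was not called. No member was called in this test of the difference (0.0426% of 14088 genes were), nor in all reads (0.0191%) or the labelled share (0.0075%) of T3M-4.

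**Figure D3:**
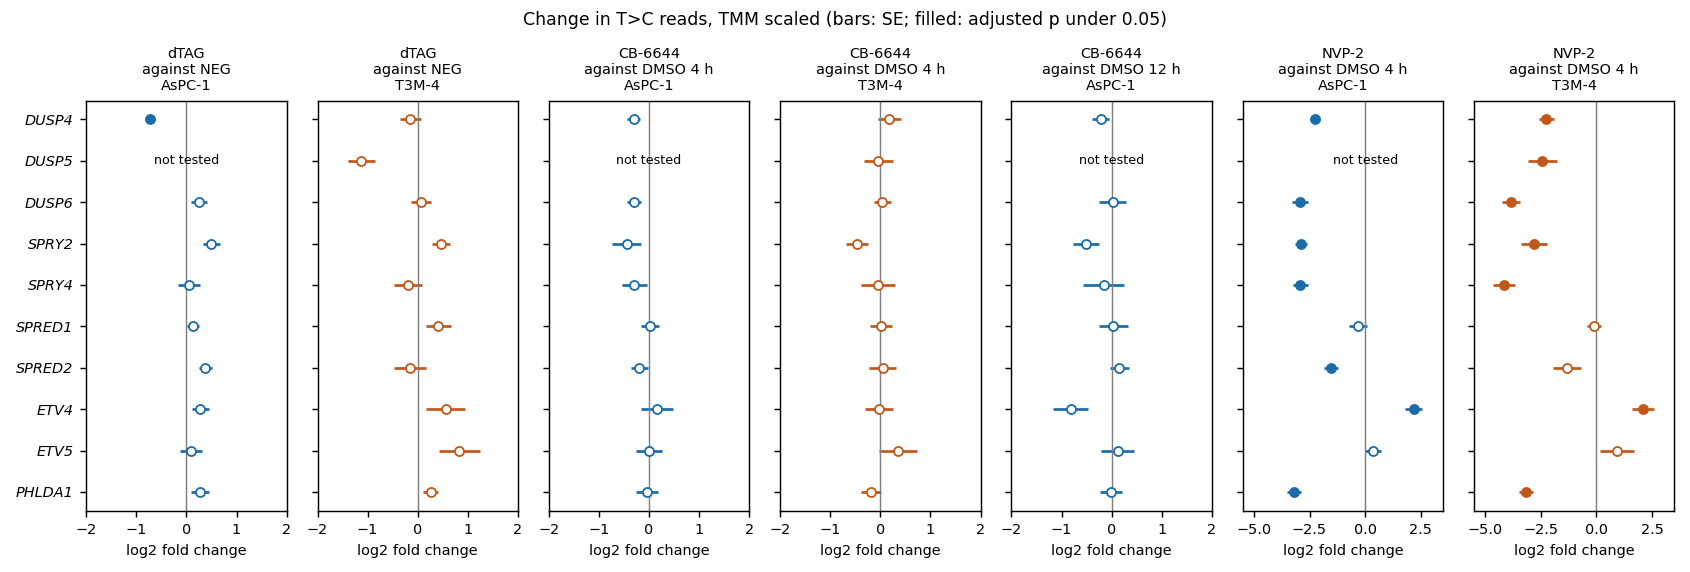
Log2 fold change of T>C reads of each member in every treatment comparison, with bars of 1 SE and filled points for members called at an adjusted p under 0.05. DUSP4 with dTAG in AsPC-1 (−0.73) is called, 0 members are called with CB-6644, and 7 members in each line are called with NVP-2, with ETV4 above 0 and the others below.

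The labelled share of AsPC-1 fell with dTAG in 93.8% of genes tested. Of all genes tested 39% were called, and their median change was −0.33 on the log2 odds scale over all genes. Among 9 members 4 were called, all lower: DUSP4 (29.4% ± 2.77, n = 9, against 37.8% ± 3.18, n = 10; −0.54 ± 0.09, adjusted p 0.000816), SPRED1 (22.5% ± 3.44 against 27.5% ± 2.82; −0.39 ± 0.12, 0.0163), PHLDA1 (45.4% ± 4.27 against 51.5% ± 3.74; −0.36 ± 0.11, 0.0196) and SPRY2 (46.0% ± 5.72 against 53.7% ± 7.10; −0.45 ± 0.17, 0.0442). With the replicate block DUSP6 was called as well (−0.33, adjusted p 0.00607). The median of the members, −0.29, lay close to that of all genes, and ETV4 alone lay above 0 (0.21 ± 0.14).

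CB-6644 gave no call among the members in either line or at either time. At 4 h in AsPC-1 DUSP4 had 187, 199, 182, 190 and 190 CPM against 210, 211, 195, 272 and 233 in DMSO, of which only 1 DMSO library lay within the CB-6644 range (−0.30 ± 0.13, unadjusted p 0.0396, adjusted p 0.979). DUSP6 had 581, 447, 466, 457 and 470 CPM against 547, 553, 501, 605 and 671, with 4 of 5 CB-6644 libraries below all DMSO libraries and library 1.1 (581 CPM) within the DMSO range (−0.30 ± 0.14, unadjusted p 0.0486, adjusted p 0.979). Changes of the 9 members ran from −0.45 ± 0.28 (SPRY2) to 0.16 ± 0.32 (ETV4), and 7 lay below 0, where 50.8% of all genes did. The share of genes called was 0% in T>C reads (482 of 11649 at an unadjusted p under 0.05, 2 members among them), 0% in all reads and 0.00838% in the labelled share. In all reads DUSP6 had −0.47 ± 0.14 (unadjusted p 0.00634, adjusted p 0.994) and SPRY2 −0.68 ± 0.28 (unadjusted p 0.0316, adjusted p 0.994).

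The labelled share of 2 members separated in that comparison. DUSP4 had 35.7%, 32.3%, 34.5%, 33.0% and 35.4% with CB-6644 and 42.9%, 46.2%, 44.4%, 40.1% and 38.8% in DMSO (−0.51 ± 0.12, adjusted p 0.0894). SPRED2 had 25.4%, 30.0%, 25.5%, 27.5% and 26.2% and 37.6%, 40%, 35.0%, 30.6% and 37.2% (−0.61 ± 0.14, adjusted p 0.0825). Both groups lay wholly below DMSO, as did 7.51% of 11689 genes, and the median over all genes was −0.27.

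In T3M-4 at 4 h changes with CB-6644 ran from −0.47 ± 0.21 (SPRY2, unadjusted p 0.0525) to 0.36 ± 0.38 (ETV5), 5 of 10 of them below 0. The shares called over all genes were 0% in T>C reads (569 of 13444 at an unadjusted p under 0.05), 0.0127% in all reads and 0% in the labelled share. SPRY2 had 33.9, 45.4, 48.1 and 51.5 CPM against 57.5, 51.4, 61.1 and 64.4, where 1 CB-6644 library reached the DMSO range. In all reads SPRY2 had −0.49 ± 0.17 (unadjusted p 0.0176, adjusted p 0.9997), with every CB-6644 library below every DMSO library. There 453 of 15761 genes, 1 member among them, had an unadjusted p under 0.05. At 12 h in AsPC-1 the changes in T>C reads ran from −0.82 ± 0.36 (ETV4, unadjusted p 0.0453, adjusted p 0.998) to 0.16 ± 0.18 (SPRED2). Over all genes 0%, 0% and 0.00803% were called in the 3 measures (473 of 12204 at an unadjusted p under 0.05 in T>C reads). ETV4 had 9.50, 7.67, 12.6 and 10.5 CPM with CB-6644 for 12 h and 18.5, 19.6, 22.7 and 6.78 in DMSO, so that 1 DMSO library lay below every CB-6644 library. DESeq2 called 0 members in any of the 3 comparisons and 0, 5 and 20 genes. No member was called in the difference between lines (0% of 13963 genes were).

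NVP-2 gave the largest changes, in both directions once T>C reads were scaled to each other. The labelled share of all 9 members tested in AsPC-1 and all 10 in T3M-4 was called lower, as were nearly all genes (95.2% and 91.1% called). SPRY4 went from 60.2%, 66.2%, 62.9%, 59.3% and 58.7% in AsPC-1 DMSO to 7.39%, 4.92%, 6.21% and 16.2%, and from 78.3%, 80.4%, 71.9% and 79.4% in T3M-4 DMSO to 6%, 2.34%, 3.23% and 3.70%. ETV4 had the smallest changes (−1.81 ± 0.33, adjusted p 0.000393, and −1.62 ± 0.60, adjusted p 0.0289), and in T3M-4 its call was lost without any 1 of 4 libraries, NVP-2 1.1 or 2.1 or DMSO 1.1 or 1.2 (adjusted p 0.0633 to 0.0823). Medians over the members were −3.71 and −4.52, and over all genes −3.41 and −3.59. After NVP-2 the share of SPRY2 still was 14.9%, 11.01%, 10.3% and 12.5% in AsPC-1 and 20.0%, 22.1%, 2.86% and 34.1% in T3M-4, and that of DUSP6 12.2% to 20.7% and 8.82% to 13.3%, against medians of 1.66% and 2.16% over all genes.

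**Figure D4:**
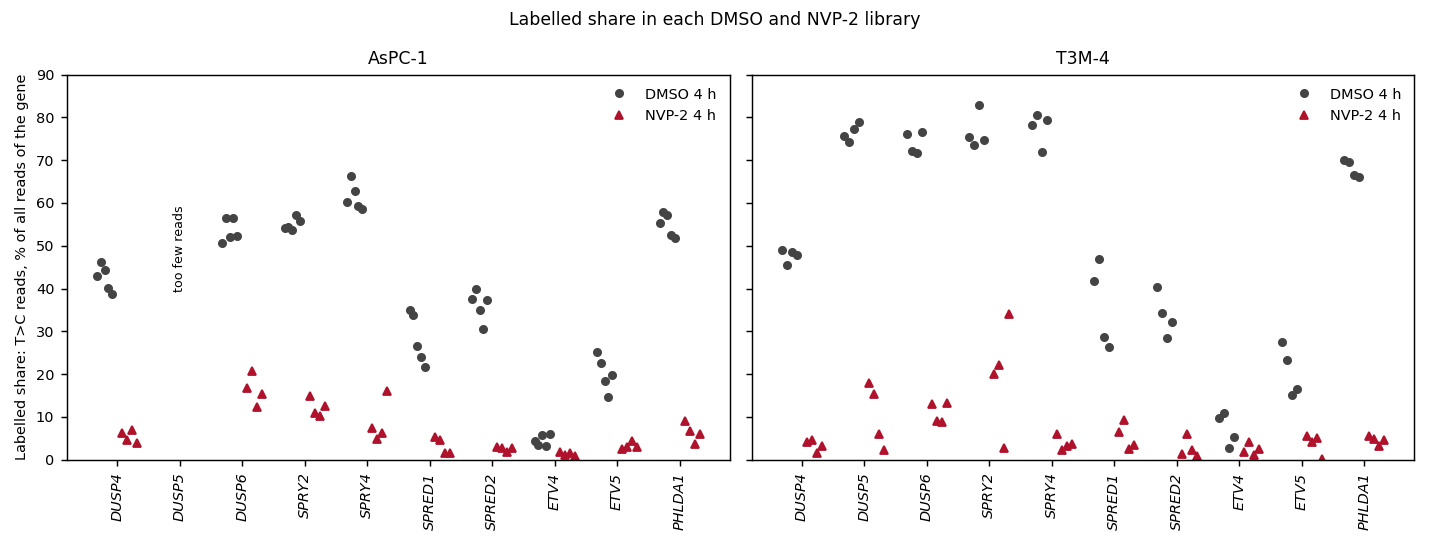
Labelled share (percent of a gene's reads with T>C) of each member in DMSO and NVP-2 libraries at 4 h, where a point is 1 library. The NVP-2 libraries lie below the DMSO libraries for every member drawn in AsPC-1 and for all in T3M-4 except ETV4, whose ranges (1.16% to 4.10% and 2.83% to 10.9%) overlap.

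Relative to the remaining T>C reads, 6 members fell and 1 rose in each line (7 of 9 and 7 of 10 called, where 30.5% and 26.7% of genes were). DUSP4 fell from 195 to 272 CPM in AsPC-1 DMSO to 28.7, 32.6, 41.9 and 25.9 (−2.27 ± 0.23, adjusted p 6.09e-05), and from 195 to 335 in T3M-4 DMSO to 61.3, 50.4, 19.3 and 35.5 (−2.25 ± 0.33, adjusted p 0.00116). DUSP6 fell to 64.3, 86.1, 27.1 and 30.8 CPM in AsPC-1 (−2.92 ± 0.36, adjusted p 0.000177) and to 28.6, 15.3, 6.80 and 7.54 in T3M-4 (−3.83 ± 0.40, adjusted p 0.000294). No NVP-2 library of either phosphatase reached a DMSO library. DUSP5 fell in T3M-4 to 30.7, 21.7, 3.63 and 2.15 CPM (−2.44 ± 0.65, adjusted p 0.0184), with −1.13 in batch 1 and −4.71 in batch 2 (adjusted p 0.0432 and 0.00705), and −2.25 (adjusted p 0.0533) without DMSO 2.2.

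Both Sprouty genes and PHLDA1 fell alongside. SPRY2 had 8.53, 8.33, 7.55 and 7.14 CPM after NVP-2 in AsPC-1 (−2.89 ± 0.27, adjusted p 5.08e-05) and 8.11, 6.82, 0.454 and 8.08 in T3M-4 (−2.81 ± 0.58, adjusted p 0.00596; −3.11 with adjusted p 0.12 in batch 2, which holds the low library). SPRY4 had 10.8, 6.25, 15.1 and 14.3 CPM (−2.92 ± 0.33, adjusted p 0.000111) and 1.52, 1.204, 0.454 and 0.539 (−4.16 ± 0.50, adjusted p 0.000507). PHLDA1 went from 475 to 821 CPM to 38.7, 34.0, 54.9 and 75.9 in AsPC-1 (−3.20 ± 0.30, adjusted p 5.08e-05) and from 702 to 829 to 88.2, 81.1, 28.6 and 40.9 in T3M-4 (−3.18 ± 0.31, adjusted p 0.000268). These low levels rest on few reads, since the 4 T3M-4 NVP-2 libraries held 6, 6, 2 and 2 T>C reads of SPRY4 and 32, 34, 2 and 30 of SPRY2, and a library at 2 lies under the 3 reads that a count of 0 allows. All NVP-2 libraries of these 3 genes lay below all DMSO libraries in both lines.

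Of the SPRED genes and ETV factors, SPRED2 was called lower in AsPC-1 and ETV4 higher in both lines. SPRED2 fell in AsPC-1 from 18.7 to 23.5 CPM to 3.70, 4.51, 4.46 and 7.14 (−1.53 ± 0.32, adjusted p 0.0038) and in T3M-4 had 1.01, 3.81, 1.81 and 0.539 CPM (−1.32 ± 0.62, adjusted p 0.146). SPRED1 had 16.8, 20.5, 7.21 and 5.35 CPM in AsPC-1 (−0.32 ± 0.40, adjusted p 0.58) and 14.4, 17.3, 10.9 and 13.7 in T3M-4 (−0.09 ± 0.32, adjusted p 0.856). In T3M-4 every NVP-2 library of SPRED1 and SPRED2 lay below every DMSO library in CPM, as in 33.3% of 12419 genes. Their mean CPM were 63.8% and 27.6% of DMSO there. In AsPC-1 SPRED2 separated downwards (24.0%) and SPRED1 overlapped (54.2%). CPM were scaled by the total of T>C reads alone, the fold changes also by TMM factors. ETV5 had changes of 0.35 ± 0.37 and 0.93 ± 0.75 (adjusted p 0.502 and 0.393). ETV4 rose from 4.27 to 9.87 CPM in AsPC-1 to 10.2, 21.9, 26.8 and 26.8 (2.18 ± 0.38, adjusted p 0.00148) and from 7.75 to 11.3 in T3M-4 to 13.7, 19.9, 23.1 and 46.8 (2.09 ± 0.49, adjusted p 0.0106), a rise that scaling by all reads turned into a change of −0.89 (adjusted p 0.0653) and −0.91 (adjusted p 0.103). All NVP-2 libraries of ETV4 lay above all DMSO libraries in both lines, and its all reads had 0.94 ± 0.38 (adjusted p 0.133) and 0.58 ± 0.44 (adjusted p 0.566).

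Scaling decides what these numbers count. Scaled by all reads, the median T>C change of all genes was −3.08 in AsPC-1 and −2.98 in T3M-4, so a member at 0 in the scaling above lost about as much labelled RNA as the median gene. In that scaling 8 of 9 and 9 of 10 members were called, all lower. Most genes were called there too, 10827 in AsPC-1 and 10712 in T3M-4. The fits scaled by T>C reads tested 11498 and 12242 genes, so the member counts alone do not set these genes apart. The lowest changes were −6.23 (PHLDA1 in AsPC-1) and −6.94 (SPRY4 in T3M-4) and the highest −0.89 and −0.91 (ETV4), with SPRED1 at −3.27 and −2.94 and ETV5 at −2.67 and −2.01. Relative to the median of all genes, DUSP4, DUSP6, SPRY2, SPRY4 and PHLDA1 lay lower and ETV4 and ETV5 higher under both scalings.

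**Figure D5:**
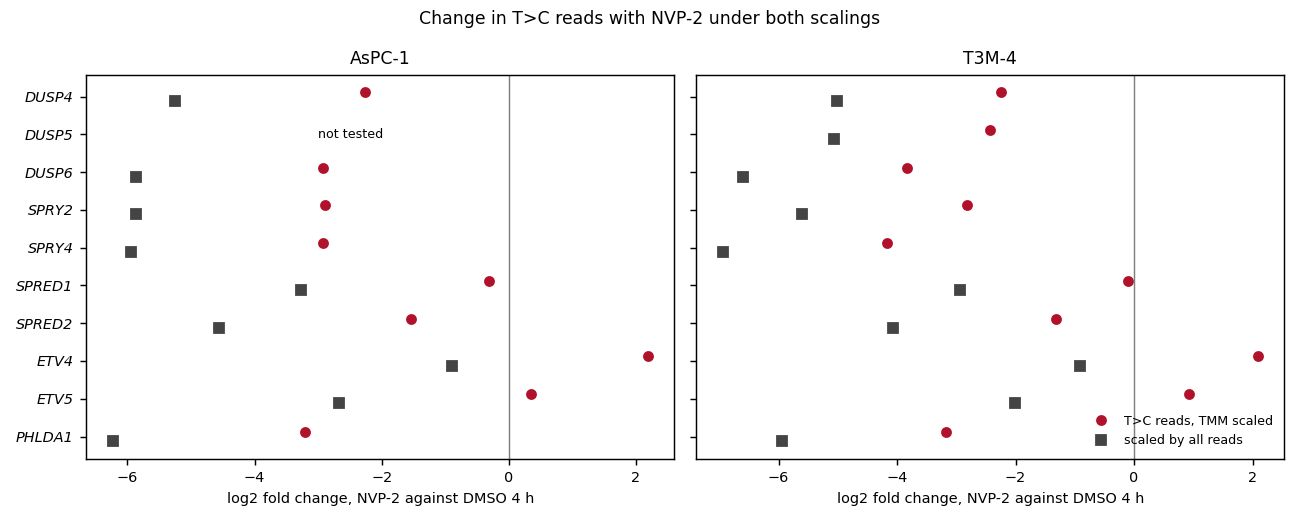
Log2 fold change of T>C reads with NVP-2 against DMSO at 4 h for each member, scaled by T>C reads (circles) and by all reads (squares). Scaling by all reads moves every member to the left, so that ETV4 lies at 2.18 and −0.89 in AsPC-1 and at 2.09 and −0.91 in T3M-4.

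The AsPC-1 NVP-2 libraries belong to batch 2 and the DMSO libraries at 4 h to batch 1, so drug and batch cannot be told apart in that fit. Against the batch 2 NEG libraries of experiment 3, 7 members were called, and against the batch 2 DMSO libraries at 12 h 6 were, with DUSP4 at −2.03 and −2.08, DUSP6 at −2.61 and −2.69 and PHLDA1 at −2.99 and −2.86. ETV4 was 1.34 (adjusted p 0.04) and 0.96 (adjusted p 0.131) there. In T3M-4 both batches hold both groups, and 6 members were called within each. The main NVP-2 fits called 30.5% of all genes in AsPC-1 and 26.7% in T3M-4. Numbers over all genes in the fits with other controls and within batches are not given here. Their member counts therefore have no background of their own. With counts summed per experiment, which leaves 2 sums a group, 6 members and 1024 genes were called in AsPC-1, where SPRED2 was lost (−1.58, adjusted p 0.0649) and DUSP4, DUSP6, SPRY2, SPRY4 and PHLDA1 had adjusted p from 0.0248 to 0.0341, and 0 members and 0 genes in T3M-4, where DUSP4, DUSP6, SPRY2, SPRY4 and PHLDA1 had adjusted p from 0.0648 to 0.0674 and DUSP5 and ETV4 0.139 and 0.116. The AsPC-1 sums were added after the data had been seen.

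All reads fell as well where labelled reads did, within 4 h. In AsPC-1 6 of 9 members were called lower in all reads (11.8% of genes called), DUSP6 by −4.23 ± 0.34, SPRY2 by −3.70 ± 0.26, PHLDA1 by −2.97 ± 0.34, SPRY4 by −2.92 ± 0.37, DUSP4 by −2.29 ± 0.17 and SPRED2 by −0.72 ± 0.19 (adjusted p from 4.83e-05 to 0.0373). In T3M-4 6 of 10 were (5.16% of genes), DUSP6 by −3.86 ± 0.46, SPRY2 by −3.77 ± 0.33, DUSP5 by −2.48 ± 0.37, SPRY4 by −2.46 ± 0.51, PHLDA1 by −2.12 ± 0.30 and DUSP4 by −1.26 ± 0.17 (adjusted p from 0.000638 to 0.0226). The response to NVP-2 was not called different between the lines for any member (0.851% of 13159 genes were), with SPRY4 the closest (−1.26 ± 0.52, unadjusted p 0.0263, adjusted p 0.278).

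Genes of the cascade itself were also counted. Of 34 listed receptors, adaptors, RAS and RAF proteins, kinases and regulators, 33 were tested in AsPC-1 and 32 in T3M-4, and 0 were called in T>C reads with dTAG or CB-6644. In the labelled share with dTAG in AsPC-1, 18 of 32 were called, all lower, where 39% of all genes were called. In T>C reads with NVP-2, 8 were called higher and 2 lower in AsPC-1 (30.5% of all genes called), among them the adaptor SHC1 (0.99 ± 0.20), the kinases RPS6KA5 (1.76 ± 0.36) and MAPK3, which is ERK1 (1.60 ± 0.34), and the RAS inactivator NF1 (0.99 ± 0.20). In T3M-4 9 were called higher and 0 lower (26.7% of all genes called), among them SHC1 (1.98 ± 0.31), the MEK kinase MAP2K1 (1.45 ± 0.30) and NF1 (1.26 ± 0.27). These rises are relative to the other T>C reads, since the labelled share with NVP-2 was called lower for 32 of 33 and 32 of 32 and higher for 0, and all reads were called for 0 higher and 1 lower in AsPC-1 and 1 higher and 1 lower in T3M-4. Their median changes in T>C reads were 0.39 and 0.45, against −0.05 and −0.12 over all genes and −2.27 and −2.34 over the feedback genes. Between the lines in DMSO 7 of 33 were higher and 11 lower in T>C reads in T3M-4, where 48.4% of all genes were called, with the receptors FGFR3 at 3.11 ± 0.26 and FGFR1 at −3.06 ± 0.27.

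A second list held 40 other feedback genes and ERK targets, described in T>C reads. With dTAG 1 of 36 tested was called higher and 5 lower in AsPC-1 (2.4% of all genes called), with the receptor EPHA2 (−0.98 ± 0.15, adjusted p 0.000535), the urokinase receptor PLAUR (−1.20 ± 0.19, 0.000712), EMP1 (−1.23 ± 0.20, 0.00091) and the AP-1 subunit JUNB (−1.34 ± 0.25, 0.00257) leading. In T3M-4 EMP1 (−1.04 ± 0.16, 0.0161) and JUNB (−1.24 ± 0.22, 0.0276) were the 2 of 36 called lower, with 0 higher (0.834% of all genes called). With CB-6644 0 were called. With NVP-2 17 of 37 were lower and 1 higher in AsPC-1 (30.5% of all genes called), with ETS2 (−2.52 ± 0.31), ERRFI1 (−2.89 ± 0.39), the growth factor EREG (−2.29 ± 0.34) and IER5 (−4.00 ± 0.62) leading. In T3M-4 19 of 35 were lower and 0 higher (26.7% of all genes called), with IER5 (−4.06 ± 0.39), the AP-1 subunit FOSL1 (−3.90 ± 0.40), the growth factor AREG (−3.07 ± 0.35) and MCL1 (−3.14 ± 0.37) leading. The median of this list with NVP-2 was −1.08 and −1.78.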

How the data were processed

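SLAM-seq was carried out on 62 libraries of AsPC-1 and T3M-4 cells, which were grouped by the line, agent and time in their labels. The authors sequenced 3′ ends (QuantSeq, single-end 100-base reads), called T>C conversions with slamdunk at default settings on hg38 over GENCODE v44 3′UTR exons, and deposited whole-number counts per gene of all reads and of T>C reads (the slamdunk version is not given in the sources used here). No spike-in and no library without 4sU were used, so T>C counts include errors and a change is relative to the other RNA of a library. The tables also held 18 empty columns, and 1 further column of values was not used: the all-read column of AsPC-1 dTAG 3.1, whose values are those of the T>C column of AsPC-1 DMSO 12 h replicate 2. That library counts in T>C reads only.

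T>C and all-read counts were tested with edgeR 4.0.16 (filterByExpr, TMM, quasi-likelihood test, R 4.3.3) in the 2 groups compared, and the labelled share with limma 3.58.1 on log2((T>C + 0.5)/(unlabelled + 0.5)) for genes with a mean of at least 50 reads and at least 10 in every library. Adjusted p-values are Benjamini-Hochberg over all genes tested, with a threshold of 0.05. SE is the absolute log2 fold change over the root of F. The line difference is the interaction of line and treatment. Scripts were tested on simulated data. Alternatives were DESeq2 1.42.0, RLE factors, no filter, scaling by all reads, blocks, batches, sums per experiment and leaving out libraries, and 2 were chosen after seeing the data, namely dividing counts by a common divisor and sums per experiment for NVP-2 in AsPC-1. The members and lists were chosen with earlier results of these data known. All members were named, with at most 4 genes of each other list by lowest adjusted p. Some listed genes are not reported here by name.

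Libraries of the same number deviated together in dTAG against NEG (correlations of 0.264 to 0.544 over 10 pairs in AsPC-1, 0.168 to 0.453 over 4 in T3M-4), in CB-6644 in T3M-4 (0.164 to 0.433) and at 12 h (0.328 to 0.651). The control of the same number was the most alike in only 5 of 10, 3 of 4, 1 of 4 and 2 of 4 pairs. Libraries of the same number at 4 h also share an experiment, so pairing by number is an assumption. For NVP-2 in AsPC-1 they lie in another batch than their controls, and a shared experiment is not established. The number was used as a block on that assumption, and the blocked value stands beside a result whose call it changed.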

Additional observations from a re-analysis of the deposited data

Results flagged for a closer look

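Of 111 groups of 4 to 10 libraries tested, 7 held a library whose gap to its nearest neighbour was large against the range of the group, a gap that chance gives in about 1 in 20 groups. After NVP-2 in T3M-4, SPRY2 had 0.454 CPM in library 2.1, where the next lowest had 6.82. After CB-6644 for 4 h in AsPC-1, library 1.1 stood above the other 4 for both SPRY2 (119 CPM, next 59.2) and DUSP6 (581 CPM, next 470). In T3M-4, library 1.1 of CB-6644 had 292 CPM of DUSP4, where the next lowest had 349. SPRY4 had 188 CPM in library 1.3 of AsPC-1 DMSO at 4 h, where the next highest had 119. SPRED2 had 39.2 CPM in library 3.3 of AsPC-1 dTAG, where the next highest had 25.4. ETV4 had 21.0 CPM in library 3.3 of AsPC-1 NEG, where the next highest had 13.4.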

How the results depend on the processing

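DUSP4 with dTAG in AsPC-1 kept its direction in every alternative run and was called in all but batch 2 alone and the sums per experiment. For dTAG in AsPC-1, where 281 genes and 1 member were called, DESeq2 called 478 genes, scaling by all reads 1191, the replicate block 867 genes and 2 members (2 members also in all reads), the experiment block 447 and 2, and the set and experiment block 911 and 2. Batch 1 alone, the same libraries as without experiment 3, called 103 genes and 2 members, batch 2 alone 16 and 0, the libraries without experiment 1 36 genes, and sums per experiment 0 and 0. For dTAG in T3M-4, where 112 genes and 0 members were called, DESeq2 called 340 genes and 1 member, the replicate block 298 and 1 (1 member also in all reads), the experiment block 354 and 1, batch 1 alone 38 genes and sums per experiment 0 genes, and leaving out 1 library gave 22 to 70 (63, 60, 22 and 56 without dTAG 1.1, 1.2, 2.1 and 2.2, and 50, 70, 39 and 48 without NEG 1.1, 1.2, 2.1 and 2.2). For CB-6644, where 0 genes were called, DESeq2 called 5 genes in T3M-4 and 20 at 12 h, the set and experiment block 1 at 12 h, and leaving out 1 library 0 to 1 at 4 h in AsPC-1. For NVP-2, scaling by all reads called 10827 and 10712 genes, sums per experiment 1024 genes in AsPC-1 and 0 genes and 0 members in T3M-4, and leaving out 1 library 2168 (without DMSO 2.2) to 3693 in T3M-4, where 3263 were called.

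Of 1987 member values under an alternative, 1792 kept direction and side of the threshold, 18 newly passed it, 20 no longer did and 157 turned sign, of which 2 were called, both ETV5 with NVP-2 scaled by all reads. Of the turned signs given here, ETV4 with NVP-2 was called before. Scaled by all reads they were, with dTAG in AsPC-1, DUSP6 −0.068, SPRY4 −0.23, SPRED1 −0.18 and ETV5 −0.29, ETV4 −0.086 with CB-6644 at 4 h in AsPC-1, and with NVP-2 ETV4 −0.89 and ETV5 −2.67 in AsPC-1 and −0.91 and −2.01 in T3M-4. In dTAG in AsPC-1, batch 1 alone, and likewise without experiment 3, gave SPRY4 −0.11, batch 2 alone DUSP6 −0.049, ETV4 −0.034 and ETV5 −0.17, sums per experiment SPRY4 −0.021, and without experiment 1 ETV5 −0.13. In dTAG in T3M-4, batch 1 alone gave DUSP4 0.10 and SPRED2 0.092 and batch 2 alone DUSP6 −0.13, and leaving out 1 library DUSP6 −0.0054 and −0.042, in a range of −0.042 to 0.17, SPRY4 −0.33 to 0.021 and SPRED2 −0.26 to 0.12. In T3M-4, batch 1 alone gave SPRED1 0.051 with NVP-2 and batch 2 alone ETV5 −0.21 with CB-6644. The causes were not tested. Replicate numbers were not taken to pair CB-6644 at 4 h or NVP-2 in AsPC-1 or NVP-2 in T3M-4 (lowest correlations −0.081, −0.090 and 0.071). The control of the same number was the most alike in 3 of 5, 2 of 4 and 2 of 4 pairs there. In these comparisons the replicate block called 0, 7 and 7 members in T>C reads, as without it. The fits without the block called 0%, 30.5% and 26.7% of all genes. Numbers over all genes with the block are not given here, so those member counts have no background of their own. In all reads the block lost SPRED2 with NVP-2 in AsPC-1 (adjusted p 0.104), while ETV4 with NVP-2 in T3M-4 was called (0.52, adjusted p 0.0466). No other call of a member in the paired comparisons changed with the block than those given in the text. Low counts limit DUSP5 in AsPC-1 and the NVP-2 libraries most.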

Other observations

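How members varied together within groups is given as a description, over libraries that share experiments and batches, and the lines were not tested against each other. After the mean of each group was removed, the 28 pairs of 8 members with at least 10 CPM had a median Pearson's r of 0.41 over 20 T3M-4 libraries, from −0.47 to 0.83, with 11 pairs above 0.5. The 36 pairs of 9 members had a median of −0.08 over 42 AsPC-1 libraries, from −0.38 to 0.69, with 2 pairs above 0.5. The gene most like PHLDA1 by this measure was PSMB6 in AsPC-1 (0.85 among 7946 genes) and AREG in T3M-4 (0.96 among 7999), and the gene most like DUSP6 was CEP85L (0.87) and KRR1 (0.93). The gene most like DUSP4 was HCCS (0.71) and EPC1 (0.94), and in T3M-4 PIAS4 (0.95) was most like DUSP5. In the control libraries of the 3 AsPC-1 sets PHLDA1 had means of 482, 754 and 689 CPM, DUSP6 548, 407 and 514 CPM and SPRED1 32.1, 23.9 and 23.7 CPM.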
